A study of Mus musculus with 23 samples.

Results

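The 4 Hox gene clusters were examined in prefrontal cortex DNA of 23 mice, in a table of methylation values for 150 bp windows of the genome (GRCm38). Members were all windows lying inside 4 intervals given by position: HoxA at chr6:52150000-52265000, HoxB at chr11:96190000-96370000, HoxC at chr15:102915000-103040000 and HoxD at chr2:74660000-74770000. The intervals span 530 kb and hold the 38 Hox genes described here. Of 210191 windows in the table, 4 lay in these intervals, all 4 in HoxB and none in a Hox gene.

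The mice were C57BL/6J (B6) or DBA/2J (D2), the parents of the BXD recombinant inbred family. CORT + DFP mice drank corticosterone (20 mg% w/v) for 7 days and were then injected with 4.0 mg/kg diisopropyl fluorophosphate (DFP), a surrogate for the nerve agent sarin, with corticosterone on alternate weeks until tissue was taken. Control mice had water without corticosterone and a saline injection. The B6 mice were 6 with CORT + DFP, at 145 to 226 days of age, and 5 controls, at 145 days. The D2 mice were 6 in each treatment at 147 to 196 days, with 11 females and 12 males in all. Methylated DNA was captured with the methyl-CpG binding protein MBD2 and sequenced (MBD-seq), so the values come from bulk tissue and do not separate neurons from glia. The reads that fell in listed windows numbered from 9776537 to 18428398 in a mouse. The value of a window is a log2 RPKM, the log2 of its reads per kb of window, scaled to library size. A window is called listed where it is in the table: the authors retained windows with at least 1 CpG and with over 1 CPM, a count scaled to library size, in 2 or more libraries. In the table the second-highest mouse of a window had at least 25 reads and at least 3.75 log2 RPKM, which is above 1 CPM of the listed reads, and the library totals used in that step are not given in the sources used here. By that rule an unlisted CpG window passed the minimum in at most 1 mouse, and methylation below the minimum could not be measured.

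Hox genes encode homeodomain transcription factors that give cells their position along the body axis. They lie in tight clusters, and their order along the chromosome follows their order of expression from the hindbrain to the tail. Their promoters and much of their coding sequence are rich in CpGs. In tissues where they are off, the clusters are known to be held silent by Polycomb proteins, which mark the histones, rather than by DNA methylation of the genes' promoters.

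The listed windows of the clusters and unlisted Hox sequence of the same CpG number were set side by side. The 4 listed windows are numbered 1 to 4 along the chromosome, and window 1 lies only partly in an exon, so its sequence was not read here. The other 3 are shown first on the + strand, read from GENCODE M21 transcripts on GRCm38 with each CpG in capitals. All 4 overlap *Gm11539*, an annotated processed pseudogene between *Hoxb13* and *Hoxb9*, and the 3 shown hold 6, 8 and 7 CpGs. The last CpG of the chr11:96249001-96249150 window runs over its end, so 6 are in capitals.
Gm11539 window 2, chr11:96248701-96248850: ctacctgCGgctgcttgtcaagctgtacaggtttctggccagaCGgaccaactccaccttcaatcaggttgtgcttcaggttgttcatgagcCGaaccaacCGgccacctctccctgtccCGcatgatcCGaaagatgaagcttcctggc
Gm11539 window 3, chr11:96248851-96249000: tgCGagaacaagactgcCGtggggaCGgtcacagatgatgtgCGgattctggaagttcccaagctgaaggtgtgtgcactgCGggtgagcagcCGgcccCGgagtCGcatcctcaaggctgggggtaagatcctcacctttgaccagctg
Gm11539 window 4, chr11:96249001-96249150: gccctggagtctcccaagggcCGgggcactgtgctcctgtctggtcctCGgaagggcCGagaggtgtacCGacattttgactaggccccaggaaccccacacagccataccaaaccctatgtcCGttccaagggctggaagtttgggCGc

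Of autosomal windows outside the clusters with 8 CpGs and a known sequence, 37.5% were listed (2911 of 7758). That share covers exons and promoters of all kinds, not coding windows alone, and was not matched for distance to a start site. Across the clusters, 7 coding windows that lay clear of annotated UTRs held 8 CpGs, as many as listed window 3, and 0 of the 7 were listed. From each cluster the one farthest from a transcription start site is shown 5′ to 3′ on the strand of its gene, again with CpGs in capitals. The *Hoxa13* and *Hoxb8* windows read into the homeodomain, the DNA-binding part of the protein.
Hoxa13, chr6:52258951-52259100, - strand: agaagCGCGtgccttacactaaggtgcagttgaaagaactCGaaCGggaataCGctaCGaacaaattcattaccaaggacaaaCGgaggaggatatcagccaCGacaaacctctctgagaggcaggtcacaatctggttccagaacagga
Hoxb8, chr11:96284251-96284400, + strand: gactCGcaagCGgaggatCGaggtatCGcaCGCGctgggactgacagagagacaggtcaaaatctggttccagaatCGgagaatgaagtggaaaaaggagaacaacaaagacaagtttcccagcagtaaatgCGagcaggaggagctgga
Hoxc8, chr15:102991051-102991200, + strand: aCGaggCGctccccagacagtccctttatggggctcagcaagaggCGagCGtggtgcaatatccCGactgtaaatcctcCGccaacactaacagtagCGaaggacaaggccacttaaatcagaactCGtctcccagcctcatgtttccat
Hoxd12, chr2:74675101-74675250, + strand: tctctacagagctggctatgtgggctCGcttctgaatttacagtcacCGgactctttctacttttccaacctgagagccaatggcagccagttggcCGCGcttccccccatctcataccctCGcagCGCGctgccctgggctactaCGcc

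These 4 coding windows were therefore as CpG-dense as the strongest listed window of the clusters and, by the authors' rule, passed the minimum in at most 1 mouse. The *Hoxa13* window lay 1566 bases from the nearest annotated start site, the *Hoxb8* window 1601, the *Hoxc8* window 519 and the *Hoxd12* window 163.

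The HoxA, HoxC and HoxD intervals held 0 listed windows each. HoxA covers 115 kb and 766 windows of the 150 bp grid, HoxC 125 kb and 833, and HoxD 110 kb and 732. HoxB, with 180 kb and 1199 grid windows, held the 4. In all, 3526 of the 3530 grid windows were not listed, a density of 0.755 listed windows per 100 kb. The 500 kb on each side of the 4 intervals held 223 listed windows, or 5.58 per 100 kb. By cluster, the flanks had 27 windows for HoxA, 92 for HoxB, 30 for HoxC and 74 for HoxD.

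**Figure D1:**
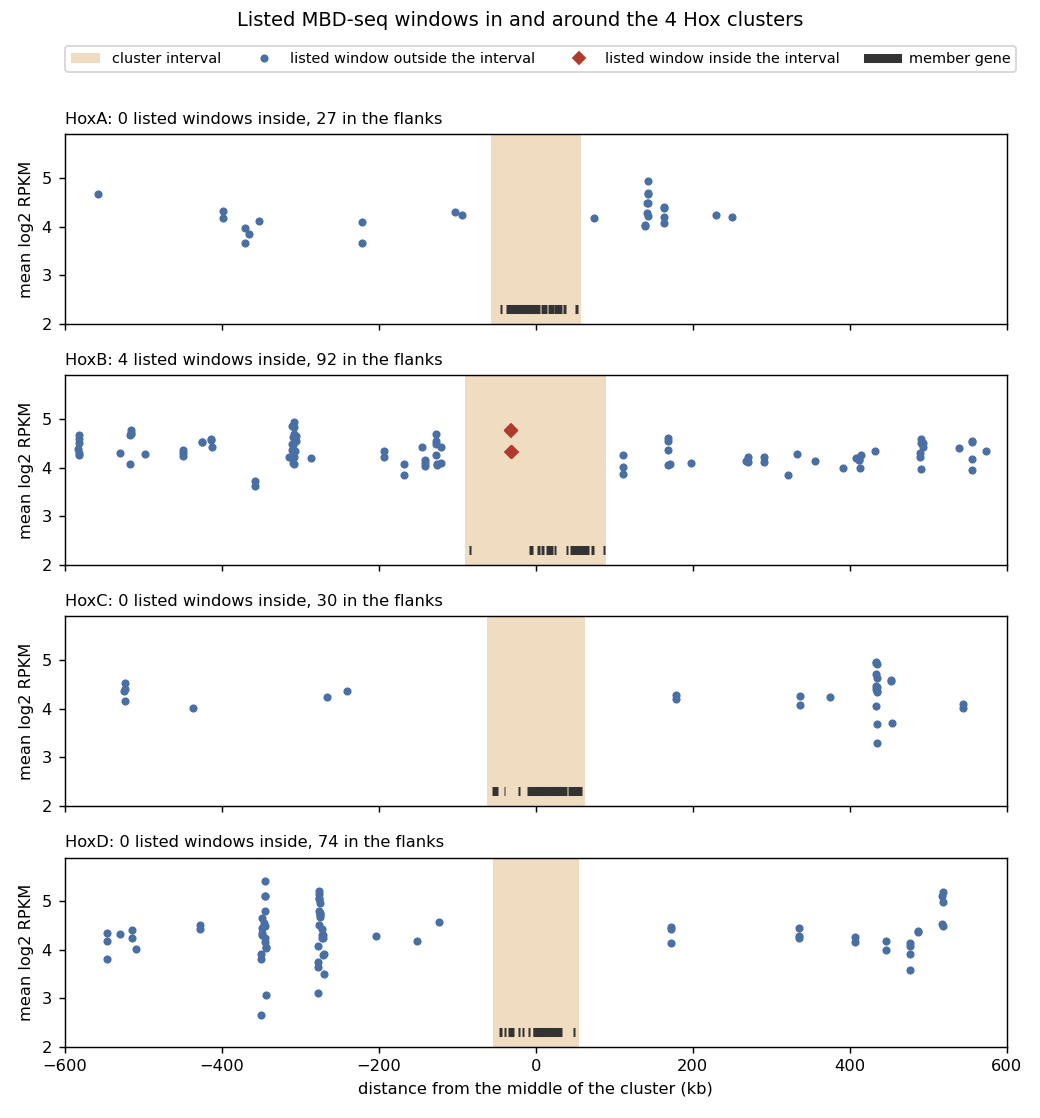
Mean log2 RPKM over 23 mice of each listed window (y axis) against its distance in kb from the middle of each Hox cluster (x axis); the shaded band is the cluster interval and the black bars are the member genes. The shaded bands are empty in HoxA, HoxC and HoxD, and HoxB holds 4 listed windows, drawn as red diamonds that overlap, in the stretch without Hox genes.

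Empty stretches of this length were not rare in the table. Among autosomal stretches of HoxA's length, 16.8% had no listed window either, against 15.0% for HoxC's length and 18.1% for HoxD's. For HoxB's length, 27.4% had at most 4. Few autosomal stretches outside the clusters had as many windows with 4 or more CpGs among those of known sequence. Sequence was known only where an exon or promoter covers a window, so this count follows annotation as well as CpG content. Only 5 other autosomal stretches had at least as many such windows as HoxA, and they held 30 to 136 listed windows with a median of 108. The 20 such stretches for HoxB held 19 to 155 listed windows, and the 9 for HoxD held 50 to 150. For HoxC there were 57, with a median of 47 listed windows. Of these, 1 had 0 listed windows, at chr13:23508851-23633851, in a histone gene cluster that includes *Hist1h1d* and *Hist1h4d*.

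The gap between listed windows over each empty cluster had to be longer than its interval, so its rank restates in part that the interval was empty. It was 418.35 kb over HoxC, which ranked 164 of 195658 autosomal gaps, and 294.9 kb over HoxD, which ranked 554. It was 167.85 kb over HoxA and 141.6 kb for the longest gap touching HoxB, ranked 2493 and 3547. The median autosomal gap was 0 kb, between adjoining windows. The 99th percentile was 185.2 kb, above the gaps of HoxA and HoxB. The nearest listed windows stood 36.6 kb before and 16.3 kb after HoxA, 31 and 20.8 kb from HoxB, 177 and 116 kb from HoxC, and 68.2 and 117 kb from HoxD. They lay in the lincRNA *Halr1* (exon), in coding exons of *Ttll6* and *Smug1*, in the processed pseudogenes *Mrpl23-ps1* and *Gm14427* on the 2 sides of HoxD, and otherwise between genes.

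On the autosomes the share of windows that were listed varied with the number of CpGs. In the 4 clusters together it was at most 2.02% in any class, with too few listed windows to show such a dependence. Sequence was known for 780 grid windows of the intervals, those covered by an exon or a promoter. Genome-wide on the autosomes, 1.08% of such windows with 1 to 3 CpGs were listed, against 0 of 281 in the clusters. With 4 to 6 CpGs the share was 14.4%, against 1 of 153. With 7 to 9 CpGs it was 35.7%, the peak, against 2 of 99. With 10 to 12 CpGs it was 23.6%, against 0 of 59, and with 13 or more it was 4.72%, against 0 of 105. All 3 listed windows of known sequence were those of *Gm11539*. Without it, 0 of 413 cluster windows with 4 or more CpGs were listed.

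**Figure D2:**
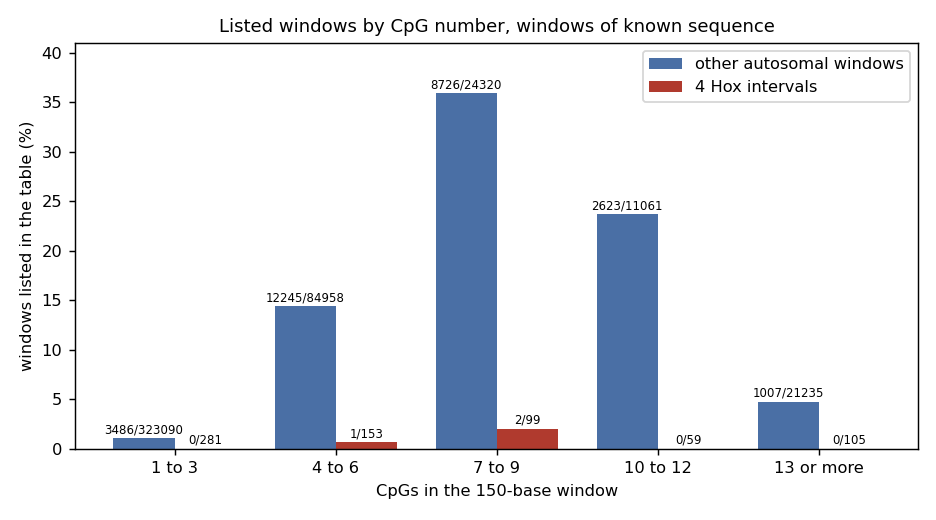
Percent of autosomal windows of known sequence that were listed (y axis) by CpGs per window (x axis), with listed and total windows printed over each bar. Outside the Hox clusters the share rose to 35.9% at 7 to 9 CpGs and was 4.74% at 13 or more, and in the clusters it stayed at or below 2.02%.

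CpG-dense windows next to start sites are often unmethylated CpG islands, so windows with 7 to 12 CpGs were divided by distance to the nearest annotated start site. Start sites were those of all annotated transcripts, processed pseudogenes included, so the windows within 1 kb are not promoter windows alone. Within 1 kb, 18.2% of autosomal windows outside the clusters were listed, against 2 of 117 in the clusters, both in *Gm11539*. These 2 stood within 1 kb of a start site through the start of the pseudogene itself. Beyond 1 kb, 51.7% were listed outside (7565 of 14619), against 0 of 41 in the clusters. The 41 were 10 in HoxA, 16 in HoxB, 9 in HoxC and 6 in HoxD.

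All 38 Hox genes had 0 listed windows over the gene and the 1 kb before it. HoxA contributed *Hoxa2* to *Hoxa7*, *Hoxa9* to *Hoxa11* and *Hoxa13*, HoxB *Hoxb1* to *Hoxb9* and *Hoxb13*, HoxC *Hoxc4* to *Hoxc6* and *Hoxc8* to *Hoxc13*, and HoxD *Hoxd1*, *Hoxd3*, *Hoxd4* and *Hoxd8* to *Hoxd13*. A gene with no listed window was common, at 47.6% of autosomal protein-coding genes, and at 39.7% of those no longer and no poorer in CpG windows than the Hox genes. The Hox genes ran from 1.85 kb (*Hoxc12*) to 49.99 kb (*Hoxc5*), and those other genes were not matched to them gene by gene. The count over all 38 was 100%.

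Each Hox gene nonetheless had windows of known sequence with 4 or more CpGs, and 35 of the 38 had some with 7 to 12. The genes' exons and promoters held 325 different windows with 4 or more CpGs, of which 0 were listed. Of all autosomal windows of known sequence with as many CpGs, 17.3% were listed. Per gene there were 4 to 22, with a median of 8. *Hoxa9*, which acts in blood stem cells and in the posterior body, had the most with 22, of which 10 held 7 to 12 CpGs. *Hoxb8* had 15, and *Hoxa10*, a regulator of uterine development, and *Hoxb2*, a hindbrain gene, had 14 each. *Hoxd3* had 13. *Hoxa7*, *Hoxb7*, *Hoxb9* and *Hoxc12* had 4 each. The anterior genes *Hoxb1* and *Hoxd1* had 7 each, and the posterior genes *Hoxa13* and *Hoxd13*, which pattern the digits, had 8 and 6. The very dense windows with 13 or more CpGs were found in 31 of the 38 genes, with 7 in *Hoxd8* and 6 in *Hoxa13*.

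**Figure D3:**
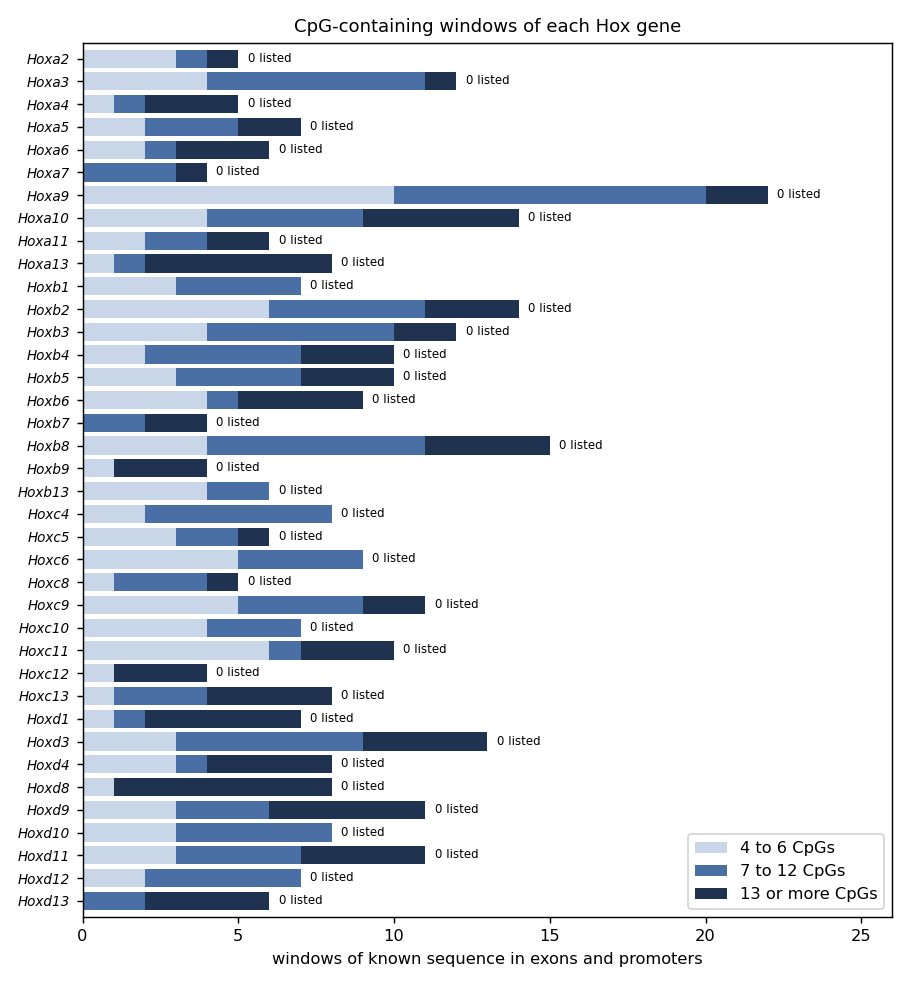
Number of 150 bp windows of known sequence (x axis) in the exons and promoters of each Hox gene (y axis), by CpGs per window, with the number of them listed in the table printed beside each bar. Every gene has 4 to 22 windows with 4 or more CpGs, and 0 are listed in each.

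Promoter sequences (RefSeq, GRCm38.p6, 250 bases before to 50 after the start) were available for 22 of the 38 genes, 24 promoters in all. They held 4 to 45 CpGs with a median of 14.5, and 0 of 24 overlapped a listed window. Among other autosomal promoters with at least 4 CpGs, the median was 15 and 3.44% overlapped one. The 3 shown, the most CpG-dense of HoxA, HoxB and HoxD whose 250 bases before the start were clear of annotated UTRs, range from 14 CpGs in *Hoxb4* to 35 in *Hoxa13*, with CpGs in capitals and each on the strand of its gene.
Hoxa13 promoter, chr6:52260881-52261130, - strand: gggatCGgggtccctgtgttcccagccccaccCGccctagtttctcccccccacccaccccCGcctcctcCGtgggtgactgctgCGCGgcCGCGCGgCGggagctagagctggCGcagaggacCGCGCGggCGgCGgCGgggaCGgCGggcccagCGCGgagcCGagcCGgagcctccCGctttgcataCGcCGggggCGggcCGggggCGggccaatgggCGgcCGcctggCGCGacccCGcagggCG
Hoxb4 promoter, chr11:96318017-96318266, + strand: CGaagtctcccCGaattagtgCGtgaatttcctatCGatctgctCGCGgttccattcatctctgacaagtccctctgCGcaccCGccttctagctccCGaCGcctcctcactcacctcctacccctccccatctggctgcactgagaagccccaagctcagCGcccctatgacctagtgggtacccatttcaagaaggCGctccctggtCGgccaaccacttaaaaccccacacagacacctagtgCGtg
Hoxd13 promoter, chr2:74667975-74668224, + strand: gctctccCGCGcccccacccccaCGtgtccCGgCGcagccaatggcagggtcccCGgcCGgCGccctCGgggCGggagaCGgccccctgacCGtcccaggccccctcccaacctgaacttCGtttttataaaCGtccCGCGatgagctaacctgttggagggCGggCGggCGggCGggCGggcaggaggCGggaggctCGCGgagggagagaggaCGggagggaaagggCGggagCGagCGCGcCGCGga

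The genes of noncoding RNAs inside the clusters had 0 listed windows as well, but the share of such genes elsewhere was not counted. They include *Hotair* in HoxC and *Hottip* and *Hotairm1* in HoxA, lncRNAs known for acting on Hox expression, and the miRNA genes *Mir10a*, *Mir10b*, *Mir196a-1*, *Mir196a-2*, *Mir196b* and *Mir615*. The lincRNA *Gm53*, which begins 1.92 kb after the end of *Gm11539*, had none. The miRNA genes named are each shorter than a 150 bp window, so their count of 0 carries little weight.

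The exception was the island in *Gm11539* (chr11:96248633-96249189, + strand, 557 bp). It stood 51.2 kb after the end of *Hoxb13* and 22.3 kb before *Hoxb9*, in the 74.0 kb spacer without Hox genes that sets *Hoxb13*, a gene of the tail bud and prostate, apart from the rest of HoxB. Listed window 1 (chr11:96248551-96248700) overlaps 68 bases of the pseudogene and the other 3 lie inside it. Its sequence matched the mRNA of *Rpl18*, a protein of the large ribosomal subunit, at 96.8% identity over 567 aligned positions with 8 mismatches. Processed pseudogenes are copies of mRNAs inserted elsewhere in the genome.

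Of 10 other processed pseudogene copies of the same mRNA, 5 had listed windows and 5 had none. The 2 closest in sequence both had them: *Gm13436* (96.3% identity) had 4 listed windows with a highest mean of 4.72 log2 RPKM, and *Rpl18-ps2* (96.1%) had 4 with a highest mean of 4.83. Among less similar copies, *Gm5312* (89.75%) had 4 and *Gm12341* (89.81%) had 0. *Rpl18* itself had 0 listed windows. The longest run that *Gm11539* shared exactly was 143 bases with *Rpl18*, 129 with *Gm13436* and 118 with *Rpl18-ps2*. These runs were shorter than a read of 150 bases. How reads with several near matches were assigned is not given in the sources used here, so the values of these windows are uncertain to that extent. Of 8924 processed pseudogenes on the autosomes, 21.1% had a listed window, and 41.3% of their windows with 4 or more CpGs were listed.

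The level of the 4 windows was typical of listed windows. Window 1 (7 CpGs) had a mean of 4.31 log2 RPKM ± 0.22 (SD, n = 23), window 2 (6 CpGs) 4.75 ± 0.16, window 3 (8 CpGs) 4.77 ± 0.17 and window 4 (7 CpGs) 4.32 ± 0.20. Against the median of autosomal listed windows of the same CpG number, window 2 was higher by 0.40 and window 3 by 0.25, above 87.8% and 72.5% of such windows. Windows 1 and 4 differed by -0.10 and -0.09. Reads per mouse were 19 to 57 in window 1, 31 to 80 in window 2, 28 to 73 in window 3 and 24 to 51 in window 4. The SD left by the model was 0.229, 0.163, 0.190 and 0.197 in order, against 0.233, 0.200, 0.198 and 0.231 from counting reads alone. The spread between mice was thus no larger than the counting error in any of the 4.

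The strains did not separate at these windows. In window 2 B6 mice ranged from 4.49 to 4.94 log2 RPKM with a median of 4.67, and D2 mice from 4.52 to 5.08 with a median of 4.77. D2 was higher than B6 by 0.12 ± 0.08 (SE) in the fit, with a 95% interval of -0.06 to 0.29 (adjusted p = 0.349, limma with Benjamini-Hochberg adjustment over all windows). In window 4 B6 ranged from 4.21 to 4.64 and D2 from 3.89 to 4.54, a difference of -0.12 ± 0.09 with an interval of -0.31 to 0.06 (limma adjusted p = 0.355). Windows 1 and 3 differed by 0.09 ± 0.10 and -0.06 ± 0.09. The strain groups overlapped in each window, and 0 of 4 windows passed an adjusted p of 0.05, whereas 33.9% of all windows did. At an unadjusted p of 0.05 the count was also 0 of 4. The 4 windows adjoin each other and share fragments, so they are not 4 separate measurements. This holds for the counts of treatment, interaction, sex and age below as well.

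**Figure D4:**
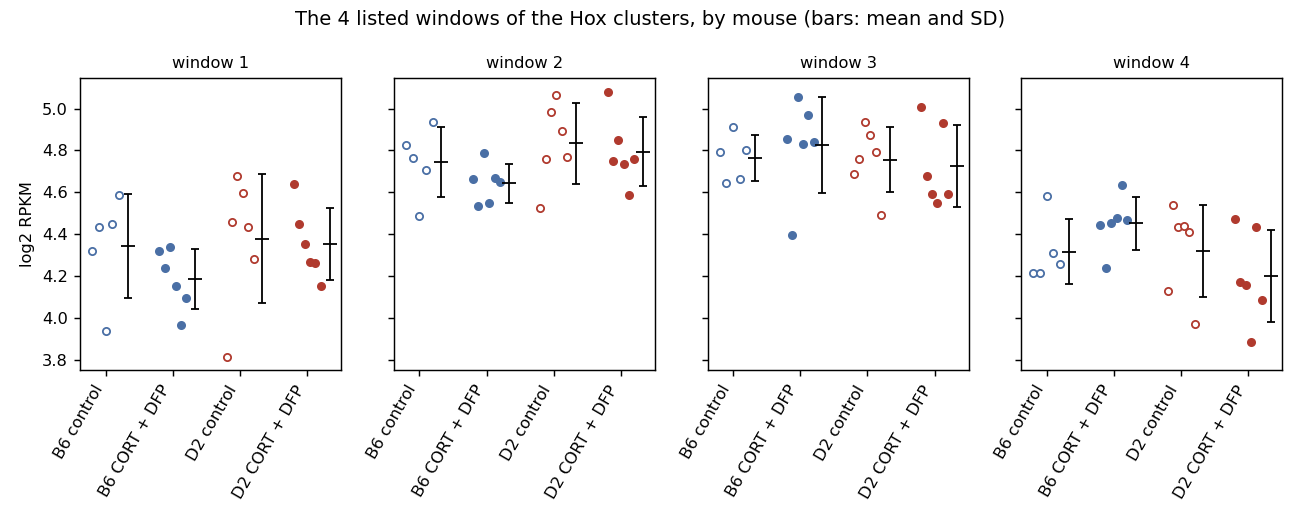
Log2 RPKM of each mouse (points; y axis) in the 4 listed windows of the Hox clusters (panels), by strain and treatment, with the mean and SD beside each group; open points are controls. The conditions overlap in every panel, with all mice between 3.81 and 5.08.

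The treatment comparison asked whether corticosterone and DFP moved methylation within a strain. The B6 controls were all 145 days old and the B6 CORT + DFP mice 145 to 226, so the B6 estimates depend on the age term. In window 1 the 5 B6 control mice stood at 4.32, 4.43, 3.94, 4.45 and 4.59 log2 RPKM, and B6 CORT + DFP mice ranged from 3.97 to 4.34 with a median of 4.20. The control at 3.94 was the lowest of the 11 B6 mice, and the other 4 controls stood above 4 of the 6 CORT + DFP mice. The fitted difference was -0.25 ± 0.16 (SE; interval -0.58 to 0.08; unadjusted p = 0.136, adjusted p = 0.888, limma). It reached an unadjusted p of 0.05 without D2 control replicate 1, the lowest mouse of that window at 3.81 (-0.32, unadjusted p = 0.024), and without B6 control replicate 3 (-0.34, unadjusted p = 0.0409). In window 2 the B6 controls stood at 4.83, 4.76, 4.49, 4.71 and 4.94, and CORT + DFP mice ranged from 4.54 to 4.79, a fitted difference of -0.13 ± 0.14. In window 4, the B6 controls stood at 4.21, 4.22, 4.58, 4.31 and 4.26 and CORT + DFP mice ranged from 4.24 to 4.64, a difference of 0.14 ± 0.15. In window 3 the difference was 0.05 ± 0.15. None of the 4 passed an unadjusted p of 0.05, against 5.79% of all windows.

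In D2 the treatment groups overlapped as well. In window 4 D2 controls ranged from 3.97 to 4.54 log2 RPKM with a median of 4.42, and D2 CORT + DFP mice from 3.89 to 4.47 with a median of 4.16. The fitted difference was -0.12 ± 0.13 (SE), with an interval of -0.38 to 0.14 (limma adjusted p = 0.974). In window 2 the difference was -0.04 ± 0.12 and in window 3 -0.03 ± 0.12. In window 1 it was -0.0044 ± 0.14. None of the 4 passed an unadjusted p of 0.05, against 5.46% of all windows.

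The treatment-by-strain interaction, the effect in D2 minus the effect in B6, was 0.24 ± 0.22 in window 1, 0.10 ± 0.19 in window 2, -0.07 ± 0.20 in window 3 and -0.26 ± 0.20 in window 4. All 4 intervals held 0, the widest from -0.20 to 0.69 in window 1. None passed an unadjusted p of 0.05, against 7.04% of all windows. A treatment effect larger than 0.58 in B6 or 0.38 in D2, in either direction, lay outside the interval of every window.

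Sex and age gave no call either. Females minus males differed by 0.06 ± 0.09 in window 2 and 0.03 ± 0.09 in window 3, and 0 of 4 windows passed an adjusted p of 0.05, against 5.78% of all windows. The age coefficient was 0.0023 ± 0.0019 log2 units per day in window 1, 0.0006 ± 0.0016 in window 2 and 0.0003 ± 0.0017 in window 3, and 0 of 4 passed an unadjusted p of 0.05, against 17.2% of all windows. Window 1 reached it without D2 control replicate 1 (0.0040, unadjusted p = 0.0224). A set is taken here as the mice whose sample names share a prefix. Age followed the set within each strain, so age and set cannot be told apart. The B6 controls all came from the same set.

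Outside the intervals, strain differences were present at a distance. Of the 223 flank windows, 57 (25.6%, against 33.9% of all windows) passed an adjusted p of 0.05, 15 higher and 42 lower in D2. The nearest to a cluster lay 36.1 kb from HoxB. The 13 called windows beside HoxC were 1 unbroken run 370.6 to 372.4 kb after the interval that overlaps an intron of *Gtsf1*, each lower in D2. At its strongest window (chr15:103411801-103411950, 11 CpGs), the B6 mean was 4.45 log2 RPKM and the D2 mean 2.23, a difference of -2.23 ± 0.13 (SE). Beside HoxD 6 windows were higher and 24 lower in D2, the nearest 215.2 kb from the interval. The largest fall was -2.94 ± 0.17 at chr2:74364451-74364600, between genes, from a B6 mean of 4.20 to a D2 mean of 1.25. HoxA had 1 higher and 2 lower and HoxB 8 higher and 3 lower, with the largest rise beside HoxB in an exon of *Calcoco2* (1.18 ± 0.11). D2 reads were aligned to a reference built from B6, so sequence differences and methylation differences cannot be told apart here.

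Other homeobox genes that pattern the embryo had a like near-absence. Of 30 such genes outside the clusters, which include *Dlx1*, *Six3*, *Otx1*, *En1* and the cluster neighbours *Evx1* and *Evx2*, 28 had 0 listed windows. The exceptions were *Lhx6* with 1 window and *Lmx1b* with 2. Among their windows of known sequence with 4 or more CpGs, 1 of 374 was listed, against 17.3% of all autosomal windows with as many CpGs. The 3 windows gave 0 calls for strain, treatment in either strain, interaction, sex or age. Over all windows the shares called were 33.9% for strain, 5.79% and 5.46% for treatment in B6 and D2, and 7.04% for the interaction. They were 5.78% for sex and 17.2% for age, and 3 windows are too few to set against these shares.

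Of the 9 TALE homeodomain cofactors, which bind DNA together with Hox proteins, 5 had listed windows, 21 in all, with 12 in *Pknox1*. The 4 cofactor genes without one were 44.4%, against 47.6% of protein-coding genes, and 4 of 86 of the cofactors' windows with 4 or more CpGs were listed (4.65%, against 17.3%). For strain, 3 of the 21 rose and 1 fell in D2 (19%, against 33.9% of all windows), with 0.89 ± 0.11 and 0.59 ± 0.11 in neighbouring *Pbx2* windows and -0.69 ± 0.12 in *Meis3*. The median of the 21 was 0.073, against 0.014 over all windows. For treatment in D2, 2 *Pbx2* windows passed an unadjusted p of 0.05 (0.45 and 0.39), a share of 9.52% against 5.46%, and 0 passed after adjustment. At the same unadjusted p, 0 of 21 were called for treatment in B6, against 5.79%, and 1 of 21 for the interaction (4.76%, against 7.04%).

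Of 21 Polycomb and trithorax genes, 12 had listed windows, 107 in all, and 47 of 208 of their windows with 4 or more CpGs were listed (22.6%, against 17.3% of all autosomal windows). For strain, 1 rose and 16 fell in D2, a share of 15.9% against 33.9%. Of the 16, 12 lay in *Cbx7*, a chromodomain subunit of Polycomb repressive complex 1, at -1.12 to -0.29. For treatment in B6, 0 were higher and 9 lower at an unadjusted p of 0.05, a share of 8.41% against 5.79%, in *Ezh1*, *Kmt2a*, *Kmt2b*, *Men1*, *Phc2* and *Ring1*. The differences ran from -0.49 in *Men1* to -0.40 in *Kmt2b*, and the list's median was -0.066, against 0.0036 over all windows. For treatment in D2, 2 were higher and 0 lower (1.87%, against 5.46%). For the interaction, 13 were higher and 0 lower, a share of 12.1% against 7.04%, with a list median of 0.188 against -0.0011. None of the 9, 2 or 13 passed an adjusted p of 0.05 in limma. For age, 16 of the 107 were higher and 2 lower at an unadjusted p of 0.05, a share of 16.8% against 17.2%. The B6 controls were all 145 days old and the B6 CORT + DFP mice 145 to 226. The B6 differences and the interaction therefore depend on the age term. Neighbouring windows share fragments, so several of these calls are not separate measurements. Of the 10 genes of the signals that set Hox domains, 7 had 33 listed windows, and 5 of 71 windows with 4 or more CpGs were listed (7.04%, against 17.3%). For strain, 2 rose and 10 fell, a share of 36.4% against 33.9%, with a list median of 0.052 against 0.014, although most calls fell. All 12 were in *Rarb*, a retinoic acid receptor, with the largest difference -3.85 ± 0.14 at chr14:16803601-16803750. At an unadjusted p of 0.05, 1 rose for treatment in B6 and 1 fell in D2 (3.03% each, against 5.79% and 5.46%). For the interaction 2 fell (6.06%, against 7.04%). For sex 1 *Rarb* window passed an adjusted p of 0.05 (3.03%, against 5.78%). For age 3 rose and 3 fell (18.2%, against 17.2%), and 2 of them, in *Rarb* and *Rarg*, passed after adjustment. The limit from aligning D2 reads to a B6 reference holds for the strain differences of these gene lists too.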

How the data were processed

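Prefrontal cortex DNA of 23 mice was enriched for methylated CpGs and sequenced. The authors aligned reads to GRCm38 with STAR 2.5.0a, counted them in 150 bp windows with MEDIPS, filtered them as described and normalized by library size in edgeR 3.34.1; the deposited values are log2 RPKM with the CpG number of each window. The values were whole reads plus a prior averaging 2 reads (100% within 0.001), with a median of 41 reads per window and mouse and 0 unmapped sample columns. Groups came from the labels. The members and gene lists were chosen with earlier results of these data known.

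Each of the 210191 windows was fitted with limma 3.58.1 in R 4.3.3, with terms for condition, sex and age, and p-values were adjusted by Benjamini-Hochberg over all windows. Strain and sex were called at an adjusted p of 0.05, and treatment, interaction and age at an unadjusted p of 0.05. Named windows were the 3 of smallest p for treatment, interaction and age, 2 for sex, and up to 5 in each direction for strain; the other listed windows, flanks and list genes were chosen after their values were seen. The fit was tested on simulated data. Window sequences were known where a GENCODE M21 exon or a RefSeq promoter covers them. CpG numbers counted from them matched those of 100% of 29118 listed windows. Copies of the pseudogene were found with BLAST 2.17.0. No genome sequence was used, so introns and intergenic windows were counted only as listed or not. Alternatives were other normalizations, pseudocounts, filters, weights, batch terms and leaving out each mouse. Nothing in the labels says that mice of a group came from separate litters.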

Additional observations from a re-analysis of the deposited data

Results flagged for a closer look

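Of 16 combinations of window and condition, 2 held a mouse far from the others, and chance gives about 1 in 20. The 4 windows adjoin and share fragments, so the 16 are not separate measurements. In window 3 (chr11:96248851-96249000), B6 CORT + DFP replicate 2 stood at 4.39 log2 RPKM, below the other 5 mice at 4.83 to 5.06, and its gap was 0.658 of the group's range. That mouse had 28 reads in the window, the fewest of the 23. In window 4 (chr11:96249001-96249150), B6 control replicate 3 stood at 4.58, above the other 4 at 4.21 to 4.31, with a gap of 0.733 of the range.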

How the results depend on the processing

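The 4 listed windows gave 0 calls for strain, sex, treatment in D2 and interaction under each alternative run. For treatment in B6 and for age, leaving out 1 mouse gave 0 to 1 calls, the 1 in window 1 each time, and every other alternative gave 0. Leaving out mice moved some values across 0: in window 2 the treatment effect in D2 ran from -0.11 to 0.014, the interaction from -0.0044 to 0.16 and the age coefficient from -0.0003 to 0.0016; in window 3 the treatment effect in D2 ran from -0.098 to 0.0097, the sex difference from -0.014 to 0.062 and the age coefficient from -0.0006 to 0.0018. Each was within its standard error of 0 in the full fit. The median level against windows of the same CpG number was 0.08 and was 0.07 to 0.10 without each mouse and 0.15 without the CpG adjustment.

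Of the choices made after seeing the data, leaving out the pseudogene took the listed cluster windows with 4 or more CpGs from 3 of 416 to 0 of 413. The count stayed 3 with exons alone, with CpGs counted inside the window alone and from the first to the last Hox gene, and was 2 of 158 at 7 to 12 CpGs. Depth limits what an unlisted window says: listed windows had at least 25 reads in their second-highest mouse, and fewer reads were not measured here.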
